A study of Ceratopteris richardii with 6 samples.

Results

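A set of 248 genes of the fern Ceratopteris richardii stood high in the same 3 of 6 callus libraries, and the split cut across the study's labels. The high libraries were proliferating 2, differentiating 1 and differentiating 2, titled BA2, MS1 and MS2. The low libraries were proliferating 1, proliferating 3 and differentiating 3, titled BA1, BA3 and MS3. Members were chosen from their measured levels, among the 21124 genes with an annotated locus tag (prefix KP509_) that averaged from 1 to under 1000 FPKM, out of 30001 gene IDs in all. FPKM are fragment numbers divided by transcript length and by the library's mapped fragments. A member had a mean log2(FPKM + 1) at least 1.5 higher in the high libraries than in the low ones, and its lowest high value lay above its highest low value. This rule took 1.17% of the genes in range, so the difference between the 2 sides is how the set was made and is not a finding. The same rule turned around took 101 genes, or 0.478%, which were high in proliferating 1, proliferating 3 and differentiating 3. Without the size threshold the first direction held 3358 genes, or 15.9% of those in range, and the other 2026, or 9.59%.

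The study sequenced polyadenylated RNA from callus in 2 labelled groups of 3 biological replicates, proliferating callus and differentiating callus. It asked which genes differ in the passage from one state to the other. No strain, tissue of origin, medium, time in culture or treatment is given in the sources used here, and the titles' prefixes BA and MS are not explained there. Differences between the states therefore cannot be told apart from differences in culture.

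Callus is unorganised plant tissue that grows in culture and from which new organs can form. In flowering plants the balance of cytokinin and auxin steers callus between continued division and the formation of shoots or roots, and a culture dish can hold cells at several stages of that passage at once. Ceratopteris richardii is a fern used in the laboratory because both of its free-living generations, gametophyte and sporophyte, are easy to grow. The gene IDs of the file come without names or descriptions. All 248 members matched a locus tag of the C.richardii_v2 assembly table, which gives 0 symbols beyond the tags themselves, so no role is given to any gene here and markers of a cell type could not be looked up.

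The libraries themselves were split the same way in how many genes they detected. Genes listed at 0 FPKM numbered 2972, 3066 and 3037 in proliferating 2, differentiating 1 and differentiating 2, and 3642, 3817 and 3674 in proliferating 1, proliferating 3 and differentiating 3. Summed FPKM did not follow the split, running from 953954 in differentiating 3 to 1027755 in differentiating 2. The number of reads is unknown. The part of gene detection in the levels described here was not tested.

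The members as a body made up a small share of the transcript pool, and that share was largest in differentiating 2. They took 0.207%, 0.174% and 0.258% of summed FPKM in proliferating 1, proliferating 3 and differentiating 3. In proliferating 2 and differentiating 1 they took 0.764% and 0.908%, and in differentiating 2 they took 1.80%. The share in differentiating 2 exceeded the sum of those in the other high libraries. The median member stood at 0.87, 0.66 and 0.875 FPKM in the low libraries, in the order proliferating 1, proliferating 3, differentiating 3. It stood at 9.29 FPKM in proliferating 2, 6.36 FPKM in differentiating 1 and 16.6 FPKM in differentiating 2. In bulk tissue, fewer cells of a kind and less RNA per cell cannot be told apart, and this holds for every level given here.

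**Figure D1:**
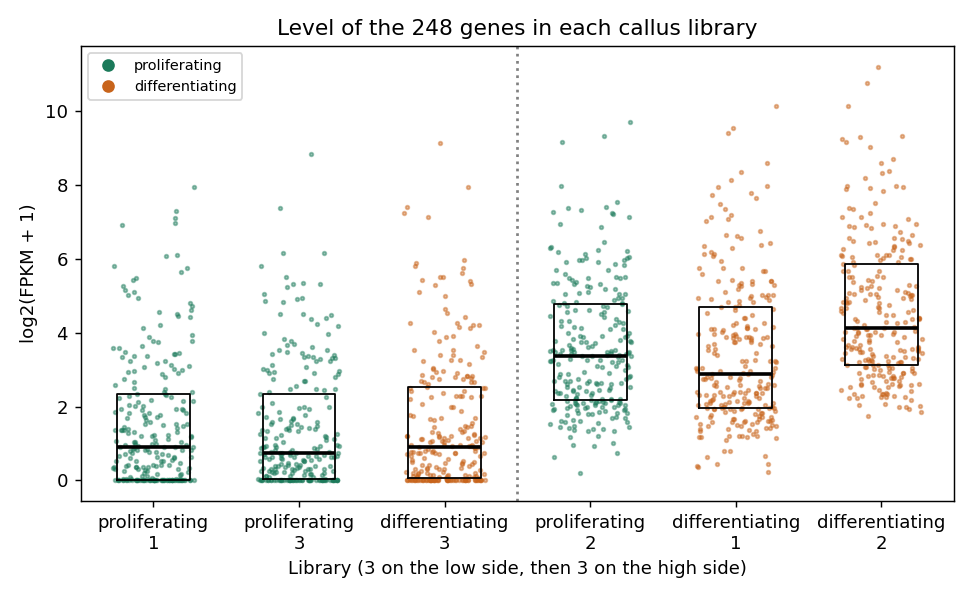
Each point is 1 of the 248 genes, with its log2(FPKM + 1) on the vertical axis and the library on the horizontal axis; boxes span the quartiles, the thick line is the median, and colours mark the labelled groups. The rule fixes the gap between the 3 libraries left of the dotted line and the 3 right of it, while differentiating 2 stands highest on its side, with a median of 16.6 FPKM.

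Averaged over all 6 libraries, members were mostly genes of low level, but this mean includes the 3 libraries that the rule makes low. It had a median of 6.202 FPKM, against 14.2 FPKM over all genes in range. In differentiating 2 alone the median member was higher, at 16.6 FPKM against 13.9 FPKM over genes in range. It was lower in proliferating 2, at 9.29 against 14.6 FPKM, and in differentiating 1, at 6.36 against 14.1 FPKM. Of the 248, 152 (61.3%) averaged 1 to 10 FPKM, where 39.3% of genes in range did, and 81 (32.7%) averaged 10 to 100 FPKM, where 53.1% did. The other 15 averaged 100 to 1000 FPKM. In 117 members all 3 low libraries were under 1 FPKM. These passed the lower limit on mean FPKM only through the libraries where they were high, so they had to differ. In 41 of the 117 the 3 low libraries were all listed at 0, and in a file without read counts a listed 0 can also be a failed estimate. The rule leaves no member listed at 0 in a high library. All 3 high libraries reached 1 FPKM in 235 members (94.8%), much as in 95.2% of genes in range.

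The members with the widest separation were at or near 0 FPKM in the low libraries and well expressed in the high ones. KP509_19G074300 had 0, 0.51 and 0.74 FPKM in proliferating 1, proliferating 3 and differentiating 3, and 249.97, 163 and 417 FPKM in proliferating 2, differentiating 1 and differentiating 2. Its difference by the rule, 7.55 on the log2(FPKM + 1) scale, was the largest of the set. KP509_39G018700 was listed at 0 in proliferating 1 and differentiating 3 and had 0.47 FPKM in proliferating 3, against 59.8, 67.0 and 135 FPKM in proliferating 2, differentiating 1 and differentiating 2, a difference of 6.18. No low library came near a high one in either gene.

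KP509_13G067400 had 0.19 FPKM in proliferating 1, was listed at 0 in the other low libraries, and had 44.4, 80.9 and 74.1 FPKM in proliferating 2, differentiating 1 and differentiating 2. It was among the few members in which differentiating 1 and not differentiating 2 was highest. KP509_14G024800 and KP509_1Z125000 were listed at 0 in all 3 low libraries. KP509_14G024800 had 47.6, 37.4 and 117 FPKM in proliferating 2, differentiating 1 and differentiating 2, and KP509_1Z125000 had 56.6, 41.2 and 63.0 FPKM. KP509_1Z111500 was uneven on its high side. It had 141 and 250.06 FPKM in proliferating 2 and differentiating 2 but 6.77 FPKM in differentiating 1, above low values of 0.81, 0.84 and 0.18 FPKM.

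The most abundant members were well expressed in every library. KP509_15G047900 had 245, 460.38 and 562 FPKM in proliferating 1, proliferating 3 and differentiating 3, and 831, 1130 and 2361 FPKM in proliferating 2, differentiating 1 and differentiating 2. KP509_11G004400 had 137, 165 and 247 FPKM in the low libraries and 639, 747 and 1731 FPKM in the high ones, in the same order. KP509_39G018800 had 44.1, 44.7 and 61.2 FPKM against 575, 675 and 1135 FPKM. These 3 genes supplied between 21.6% and 38.1% of the summed FPKM of the set in each library. In all 3, differentiating 2 was the highest of the 6 libraries.

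**Figure D2:**
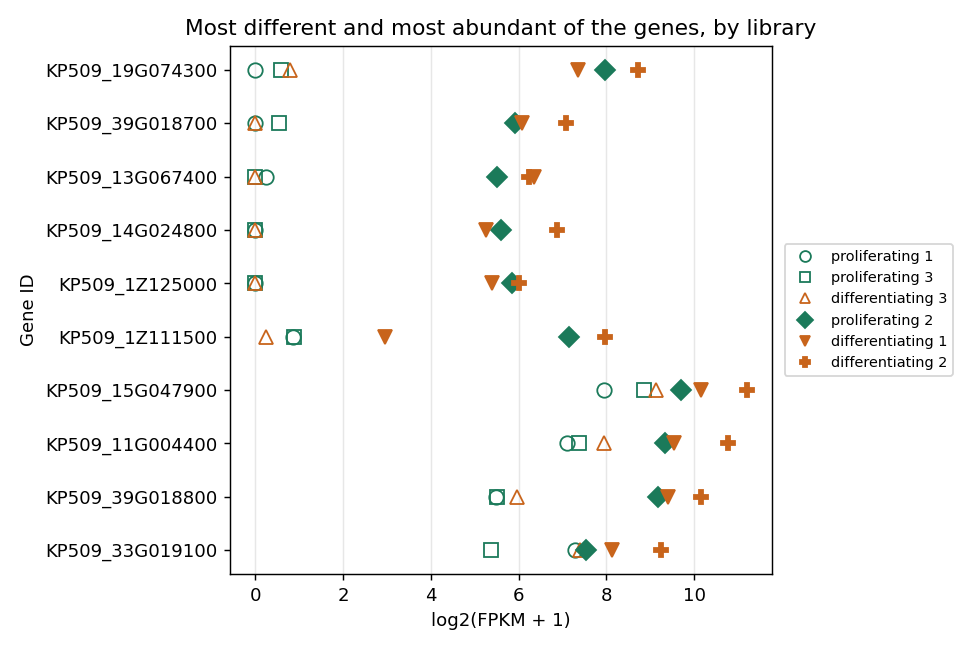
The 6 members with the largest difference by the rule (upper rows) and the 4 most abundant members (lower rows), with log2(FPKM + 1) on the horizontal axis and 1 marker per library; open markers are the low libraries, filled markers the high ones, and colours the labelled groups. KP509_19G074300 spans 0 to 417 FPKM, while KP509_33G019100 has 169 FPKM in differentiating 3 beside 184 FPKM in proliferating 2.

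The fourth most abundant member, KP509_33G019100, shows how narrow the gap between the sides could be. It had 155, 40.1 and 169 FPKM in proliferating 1, proliferating 3 and differentiating 3, and 184, 279 and 602 FPKM in proliferating 2, differentiating 1 and differentiating 2. Only proliferating 3 stood well below the rest. Among the 207 members with a low value above 0, the lowest high value was at least 4 times the highest low value in 72, at least 2 times in 134 and at least 1.1 times in 198. Just inside the threshold were KP509_14G088600 and KP509_27G059700, with rule differences of 1.507 and 1.504. Just outside were KP509_1Z185600 at 1.4997 and KP509_07G032900 at 1.4991.

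Within the high side, which the rule does not order, differentiating 2 led nearly everywhere. It was the highest of the 3 high libraries in 218 members (87.9%), where it was the highest of the same 3 in 28.9% of all genes in range. Proliferating 2 was highest in 17 members (6.85%) and differentiating 1 in 13 (5.24%), against 43.4% and 27.7% of genes in range. The median member was higher in differentiating 2 than in differentiating 1 by 1.08 on the log2(FPKM + 1) scale and higher than in proliferating 2 by 0.94, where the medians over all genes in range were -0.03 and -0.07. In 93 members differentiating 2 was at least 2 times both other high libraries. Proliferating 2 and differentiating 1, which carry different labels, differed little in the median member, by -0.11 (differentiating 1 minus proliferating 2), with quartiles of -0.63 and 0.43. The rule averages the high side, so a gene that is very high in any 1 of the 3 libraries passes more easily. How much this adds to these counts was not tested.

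**Figure D3:**
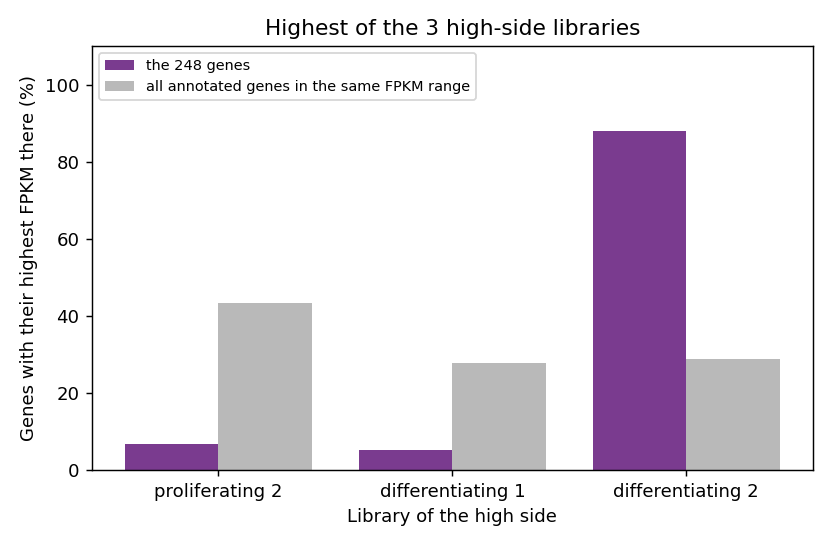
Bars give the percentage of genes whose highest FPKM among proliferating 2, differentiating 1 and differentiating 2 was in the library named below, for the 248 genes (purple) and for all 21124 annotated genes in the same FPKM range (grey). Differentiating 2 was highest in 87.9% of the set and in 28.9% of all genes in range.

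The lead of differentiating 2 was also seen in genes chosen without it. When the rule was applied to the other 5 libraries it took 161 genes, of which 155 were members of the set. In 132 of the 161 (82.0%) differentiating 2 lay above both proliferating 2 and differentiating 1. On a scale where 0 is the mean of the low libraries and 1 the mean of the high libraries used, its median position was 1.37, with quartiles of 1.23 and 1.59. The same exercise placed the other high libraries lower, on a scale whose upper end then includes differentiating 2 and is raised by its lead. In 399 genes chosen without proliferating 2, its median position was 0.56, and it lay above all low libraries in 306 of them. In 327 genes chosen without differentiating 1, its median position was 0.70, and it lay above all low libraries in 281.

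The low libraries, left out in turn, lay near the low level. Proliferating 1 had a median position of 0.02 in 280 genes, proliferating 3 of 0 in 242 genes and differentiating 3 of 0.04 in 293 genes. They lay below the high libraries in 256, 235 and 263 of these genes. The assignment of each library to a side was itself made from all 6 libraries, and the 6 gene lists share most of their members, so these values describe the libraries and are no test. The exercise was added after the levels had been seen.

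**Figure D4:**
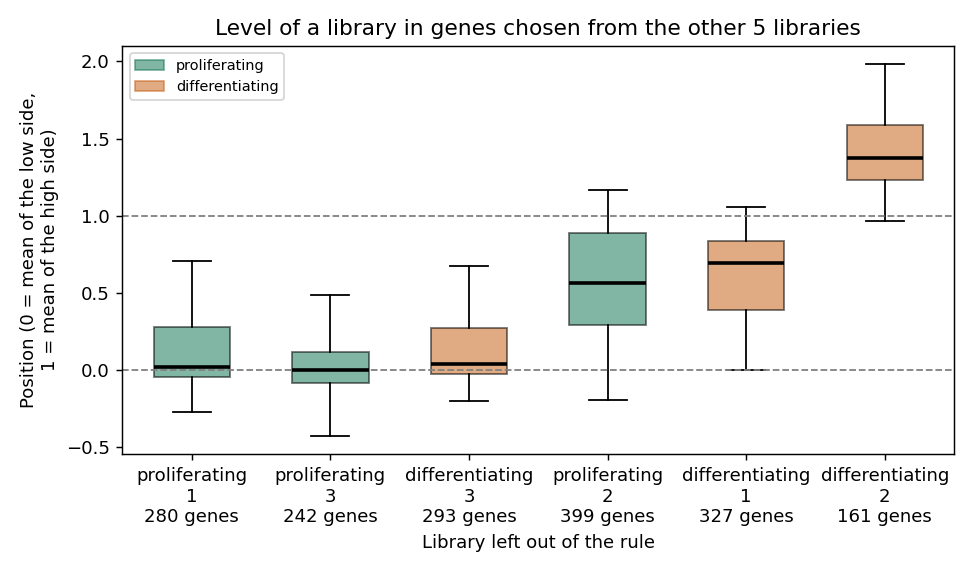
For each library, the rule was applied to the other 5 and the level of the omitted library was placed on a scale from 0 (mean of the low libraries) to 1 (mean of the high libraries); boxes span the quartiles, thick lines are medians, whiskers run from the 5th to the 95th percentile of genes, and colours mark the labelled groups. Medians were near 0 for the 3 low libraries, 0.56 and 0.70 for proliferating 2 and differentiating 1, and 1.37 for differentiating 2.

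Members led by another library than differentiating 2 were few. KP509_14G018300 was led by proliferating 2, with 64.2 FPKM there, 16.1 and 30.0 FPKM in differentiating 1 and differentiating 2, and 3.80, 2.95 and 4.65 FPKM in proliferating 1, proliferating 3 and differentiating 3. KP509_24G081000 was led by differentiating 1, with 199.5 FPKM there and 119 FPKM in differentiating 2. Its 39.5 FPKM in proliferating 2 barely exceeded the 39.3 FPKM of proliferating 3, and it had 22.5 and 38.5 FPKM in proliferating 1 and differentiating 3. Among those led by differentiating 2, KP509_05G023800 rested on that library alone, with 14.1 FPKM in differentiating 2, 0.15 and 0.37 FPKM in proliferating 2 and differentiating 1, and a listed 0 in the rest.

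The low libraries lay closer together than the high ones. The median member ranged over 0.50 on the log2(FPKM + 1) scale among the low libraries and over 1.40 among the high ones, where genes in range had medians of 0.34 on both sides. In the 117 members under 1 FPKM in every low library, the low-side range cannot exceed 1 on this scale. Many members were tied on this side, mostly at 0. Differentiating 3 was the highest low library in 74 of the 201 members without a tie for highest (36.8%), beside 32.4% of untied genes in range, and the lowest in 45 of the 184 without a tie for lowest (24.5%), beside 32.0%. Some members did separate the low libraries. KP509_10G082300 had 2.31 and 5.76 FPKM in proliferating 1 and proliferating 3 and 11.5 FPKM in differentiating 3, below 13.8, 30.9 and 68.4 FPKM in proliferating 2, differentiating 1 and differentiating 2. KP509_21G039400 went the other way, with 2.80 and 4.58 FPKM in proliferating 1 and proliferating 3 and 0.37 FPKM in differentiating 3, below 11.2, 5.39 and 18.6 FPKM. KP509_26G059500 had 11.1, 2.55 and 1.29 FPKM in proliferating 1, proliferating 3 and differentiating 3 and 11.6, 14.7 and 13.1 FPKM in the high libraries, so that proliferating 1 alone joined the high side.

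Between the labelled groups, no member passed the test with group as its only term. The high side holds 2 differentiating libraries and 1 proliferating one, so the rule by itself makes most members higher in differentiating callus. It also widens the spread within the labelled groups and makes them overlap in every member. Accordingly 244 members were higher and 4 lower in differentiating callus, and 112 were at least 2-fold higher on the log2(FPKM + 1) scale, beside 2.01% of all 22371 tested genes. The median difference (differentiating minus proliferating) was 0.92 with a median SE of 0.80, where all genes in range had -0.0003 and an SE of 0.17. With limma on all tested genes, 0 members were called (2-fold or more with an adjusted p below 0.05), and over all tested genes 0.0% were called. At an unadjusted limma p under 0.05 there were 15 members (6.05%), where 12.7% of tested genes were. The smallest limma adjusted p of a member was 0.318. Without differentiating 3, a fit that sets mostly high against low libraries and so repeats part of the rule, 7 members (2.82%) and 1.51% of tested genes were called, and 128 members (51.6%) and 20.5% of tested genes were at an unadjusted p under 0.05. Such members numbered 43 (17.3%) without proliferating 2, beside 14.2% of tested genes, and 1 or 2 without any of the other 4 libraries, beside 5.81% to 9.74%. P-values rest on the spread between these libraries, which the labels call biological replicates without saying more.

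The members nearest to following the labels had proliferating 2 just above the low libraries. KP509_31G028000 (the member with the smallest p, named after its values were seen) had 2.72, 5.29 and 1.58 FPKM in proliferating 1, 2 and 3 and 16.7, 20.2 and 5.12 FPKM in differentiating 1, 2 and 3. Its group means were 3.20 ± 1.90 and 14.0 ± 7.88 FPKM (SD, n = 3), a log2 difference of 1.75 (SE 0.52, limma adjusted p 0.318). KP509_10G082300 had group means of 7.29 ± 5.89 and 36.9 ± 28.9 FPKM (SD, n = 3), with a log2 difference of 2.13 (SE 0.73, limma adjusted p 0.344). In both genes differentiating 3 held the lowest differentiating value and proliferating 2 the highest proliferating value. The rule fixes this in every member, so it is no observation about these genes.

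The largest labelled differences came with a wide spread within groups. The rule splits each labelled group between its sides, so a large rule difference by itself makes this spread. The proliferating libraries averaged 83.5 ± 144 FPKM of KP509_19G074300 and the differentiating ones 194 ± 210.0 FPKM (SD, n = 3), with a log2 difference of 2.77 (SE 2.68, limma adjusted p 0.687). KP509_13G065700 had 0, 12.4 and 0 FPKM in proliferating 1, 2 and 3 and 29.8, 31.4 and 0.94 FPKM in differentiating 1, 2 and 3, with a log2 difference of 2.39 (SE 1.39, limma adjusted p 0.501). At the other end, KP509_29G054900 had 0.87, 5.43 and 1.68 FPKM in proliferating 1, 2 and 3, 2.13 and 4.79 FPKM in differentiating 1 and 2, and a listed 0 in differentiating 3, with a log2 difference of -0.28 (SE 0.71, limma adjusted p 0.892). KP509_21G039400 had a difference of -0.20 (SE 0.93, limma adjusted p 0.945). The signs of KP509_29G054900 and KP509_21G039400 both turned positive without differentiating 3 and without proliferating 2. Either omission sets mostly high against low libraries and so repeats part of the rule.

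Compared within each side, differentiating 2 lay above proliferating 2 in most members, while differentiating 1 did not. Proliferating 2 was above differentiating 1 in 140 members (56.5%), beside 54.4% of genes in range. The mean of differentiating 1 and 2 exceeded proliferating 2 by a median of 0.36 on the log2(FPKM + 1) scale, where genes in range had -0.05. Both differentiating libraries lay above proliferating 2 in 107 members (43.1%), beside 30.4% of genes in range. On the low side differentiating 3 differed from the mean of proliferating 1 and 3 by a median of 0, where genes in range had 0.006. One arm of each comparison is a single library, so there is no replicate check. The high-side value was 0.98 in the 45 members whose highest low value was 10 FPKM or more, 0.37 in the 86 with 1 to under 10 FPKM, 0.21 in the 76 above 0 and under 1 FPKM, and 0.12 in the 41 listed at 0. The corresponding low-side values were 0.24, 0.05, -0.03 and 0. In the class with 10 FPKM or more, median levels were 77.5 FPKM in differentiating 1 and 50.9 FPKM in proliferating 2. In the remaining classes differentiating 1 had the lower median, at 8.545 against 9.79, 2.905 against 3.545 and 3.15 against 4.83 FPKM. The lead of differentiating 2 differed less between these classes, at 88.9%, 89.5%, 88.2% and 82.9% of members.

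Members often lay next to each other in the genome. Of the 229 members placed on a chromosome, 35 (15.3%) had another member as their direct neighbour in the gene order of C.richardii_v2, where 1.32% of the placed non-members in range had a member beside them. The 35 formed 1 run of 3 genes and 16 pairs. Of the 161 genes chosen without differentiating 2, 15 had a neighbour in their own list. Of the 399 chosen without proliferating 2, 61 had one, and these lists differ in size. In 17 of the 18 adjacent couples both genes were highest, among the high libraries, in differentiating 2. Taken singly, 87.9% of all members were highest there, so this count says little about neighbours. Neighbours that were not members had a median rule difference of 0.08 against 0.05 over all genes in range, and 20 of 262 (7.63%) reached a rule difference of 1, beside 1.80% of all non-members in range. Gene copies that lie side by side can share reads in the authors' quantification, and without sequences it was not tested whether adjacent members are copies.

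The run of 3 was KP509_20G058000, KP509_20G058100 and KP509_20G058200. KP509_20G058000 had 5.92, 9.18 and 4.71 FPKM in proliferating 1, proliferating 3 and differentiating 3, and 57.4, 50.4 and 85.7 FPKM in proliferating 2, differentiating 1 and differentiating 2. KP509_20G058100 had 9.87, 8.77 and 8.56 FPKM against 71.6, 60.5 and 104 FPKM in the same order. KP509_20G058200 had 10.1, 14.8 and 22.1 FPKM against 68.9, 81.9 and 150.5 FPKM. All 3 genes kept a wide gap between the sides, from 9.18 to 50.4, from 9.87 to 60.5 and from 22.1 to 68.9 FPKM.

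The gene before the run, KP509_20G057900, was at 65.4, 64.8 and 90.1 FPKM in proliferating 1, 2 and 3 and at 58.0 and 76.3 FPKM in differentiating 1 and 3, with 15 FPKM in differentiating 2. It was therefore lowest in the library where the run was highest. The gene after it, KP509_20G058300, did not exceed 1.57 FPKM in any library.

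The most abundant pair joined KP509_39G018700 and KP509_39G018800, described above, which differed widely in level and had the same order of the 3 high libraries. Their flanking genes KP509_39G018600 and KP509_39G018900 were abundant throughout, at 804 to 1231 FPKM and 1829 to 2469 FPKM, with rule differences of -0.17 and 0.02. The shift was thus limited to the pair among the 2 genes on each side, since the outer flanks KP509_39G018500 and KP509_39G019000 had -0.33 and 0.12.

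**Figure D5:**
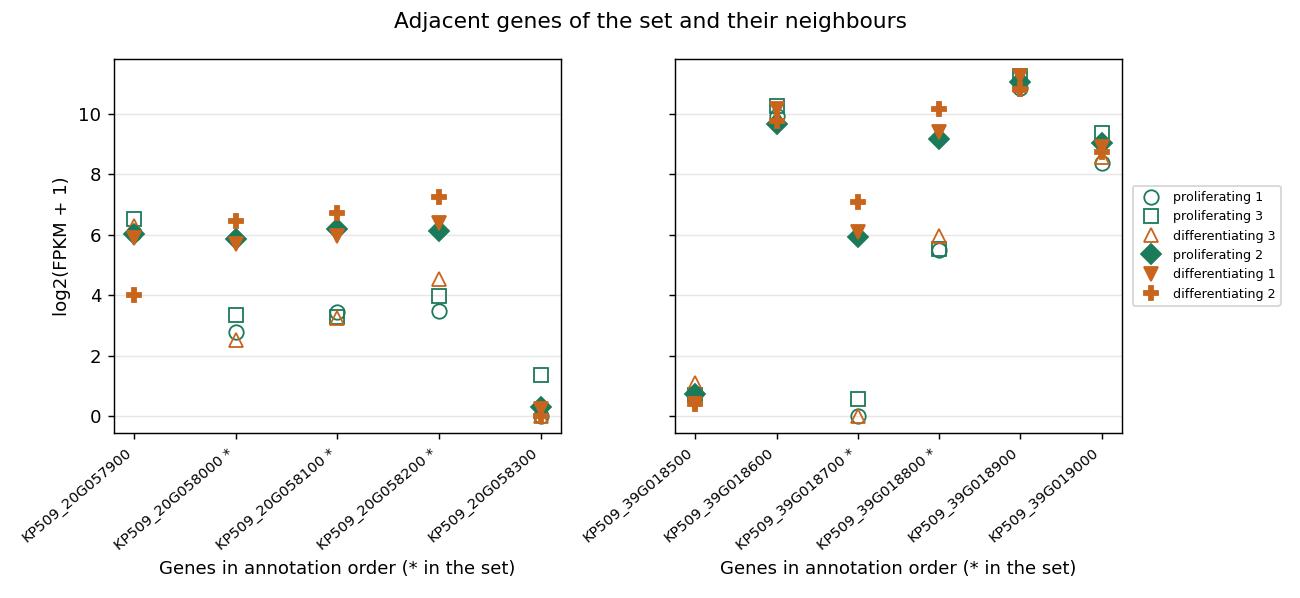
Genes in annotation order on the horizontal axis around the run of 3 members on the left and the most abundant member pair on the right (members carry an asterisk, and genes absent from the file are skipped), with log2(FPKM + 1) on the vertical axis and 1 marker per library; open markers are the low libraries and filled markers the high ones. The sides part in the members, while KP509_39G018600 and KP509_39G018900 show 804 to 1231 and 1829 to 2469 FPKM without a split.

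Other pairs repeated the pattern with a narrower gap. KP509_20G082000, beside KP509_20G081900, had 42.0, 27.9 and 44.7 FPKM in proliferating 1, proliferating 3 and differentiating 3 and 123, 179 and 383 FPKM in proliferating 2, differentiating 1 and differentiating 2. KP509_20G081900 had 12.8, 9.25 and 16.5 FPKM against 25.5, 49.6 and 88.8 FPKM. A pair of pairs lay close together: KP509_32G021300 and KP509_32G021400, and KP509_32G021700 and KP509_32G021800. KP509_32G021800 reached 318 FPKM in differentiating 2 from 37.2 FPKM in proliferating 1. These pairs were named after their values were seen.

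A further group of members had matching values without being neighbours. KP509_33G019000, which lies beside KP509_33G019100, had 123, 27.6 and 139 FPKM in proliferating 1, proliferating 3 and differentiating 3 and 161, 251 and 569 FPKM in proliferating 2, differentiating 1 and differentiating 2. KP509_02G028000, on another chromosome, had 119, 21.8 and 149.5 FPKM against 154, 244 and 624 FPKM. These 2 genes and KP509_33G019100 had proliferating 3 well below every other library. The rule counts proliferating 3 among the low libraries. Its low value lowers the mean of the low side and so helped all of these genes pass. KP509_02G109400 and KP509_22G081100 also differed by at most 0.19 on the log2(FPKM + 1) scale in any library, with 329 and 290 FPKM in differentiating 2. The 4 unplaced members KP509_1Z264400, KP509_1Z156300, KP509_1Z182400 and KP509_1Z165500 had the same value as each other in all 6 libraries, and so did KP509_28G042700 and KP509_36G061600. Such values can come from copies that share reads, so these 6 members may stand for fewer transcripts.

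Members were spread over the genome. Each of the 39 chromosomes held at least 1, from 1 of 586 genes in range (0.171%) on chromosome 11 to 10 of 443 (2.26%) on chromosome 31. Another 19 members (7.66%) were on unplaced sequences, where 5.01% of genes in range were. The rule was limited to annotated locus tags. Among 1160 gene models with IDs of the authors' own in the same FPKM range, 130 (11.2%) met the rest of the rule, and 20 (1.72%) met it turned around. No annotated gene averaging 1000 FPKM or more met the rest of the rule, while 38 genes in range had the difference but overlapping sides. None averaging under 1 FPKM met the rest of the rule either. At such levels the rule's threshold is almost out of reach on the log2(FPKM + 1) scale. The absence of genes under 1 FPKM therefore follows largely from the rule and is not a finding.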

How the data were processed

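Total RNA was isolated with CTAB, and random-primed cDNA of its polyadenylated fraction was sequenced in 150 bp reads from both ends on DNBSEQ, per the labels' protocols. The authors deposited FPKM per gene and library, with 1 column per library, per the file headers. The tools RSEM, DESeq2, HISAT2 2.1.0 and Bowtie2 2.2.5 appear, with no role stated, per the submitters' processing notes. As build and annotation are not given here, the C.richardii_v2 table (36816 genes) served only for tags, chromosomes and gene order, and unplaced genes were given no neighbours.

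No count model was fitted to these normalized values, and depth and counting error are unknown. Genes averaging at least 1 FPKM (22371) were fitted with limma 3.58.1 in R 4.3.3 on log2(FPKM + 1), with group as the only term, a mean-variance trend, two-sided tests and Benjamini-Hochberg adjustment. The pseudocount of 1 understates changes of low genes. Fit and rule were tested on simulated data. Other values came from Python 3.11.15 with NumPy 2.4.6 and pandas 2.3.3, and plots from matplotlib 3.10.9.

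The members and lists were chosen with earlier results of these data known. Named genes were the 6 members with the largest rule difference, the 4 most abundant, 2 just inside and 2 just outside the threshold, the extremes of the labelled and within-side differences, and the 2 longest runs of neighbours, ties going to the higher mean. Searches for 39 protein signatures and 12 promoter motifs were planned and not run, as no sequences were used here. Alternatives covered pseudocount, filter, scaling, replicate block, the rule's threshold and leaving out each library. Those for the lead of differentiating 2, for the low-side classes and for libraries left out of the rule were chosen after seeing the data.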

Additional observations from a re-analysis of the deposited data

How the results depend on the processing

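The number of members was 381 with a pseudocount of 0.1, 475 and 118 at rule thresholds of 1 and 2, and 135 with a mean of at least 5 FPKM, against 248. It was 161 to 399 with 1 library left out, lowest without differentiating 2 and highest without proliferating 2. Scaling to equal sums gave 237 and quantile normalization 211, all of them members of the set. Members next to another member numbered 56 and 13 at thresholds of 1 and 2 and 15 to 61 with 1 library left out, against 35. Differentiating 2 was highest of its side in 86.3% to 90.7% of genes under the 5 alternatives run for it. With equal sums and quantile normalization the share was taken over the 248 members, otherwise over each alternative's own list. Members with all low libraries under 1 FPKM were 20.7% with a mean of at least 5 FPKM, against 47.2%, since that filter removes low genes.

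In the labelled comparison, leaving out differentiating 3 called 337 genes, 7 of them members, and every other fit without 1 library called 0, so the ranges were 0 to 337 and 0 to 7. That fit sets mostly high against low libraries, which the rule used. The median labelled difference over members was 0.30 without differentiating 2 and 1.71 without differentiating 3. With 1 library left out the labelled log2 difference ran from -1.36 to 2.86 for KP509_1Z111500, -0.30 to 1.73 for KP509_14G018300, -0.85 to 0.42 for KP509_29G054900, -1.10 to 0.81 for KP509_21G039400 and -0.63 to 0.87 for KP509_26G059500, each changing sign. KP509_24G081000 passed without differentiating 3 (limma adjusted p 0.0414, range over 12 alternatives 0.0414 to 0.794). Of 307 fits of single named genes, 293 kept both sign and side of the threshold. Beyond the number of libraries and the part that the rule fixes, what lies behind these shifts was not tested.

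With the replicate number as a block, limma called 112 genes (0.501% of those tested), 10 of them members (4.03% of the set). At an unadjusted limma p under 0.05 there were 124 members (50%), beside 17.2% of tested genes. The libraries numbered 2 are both on the high side and those numbered 3 both on the low side. The rule sets differentiating 1 above proliferating 1 in every member. This fit therefore repeats part of the rule, and its counts of members are no support. Same-numbered libraries had correlated deviations of -0.0955, 0.572 and 0.45, so whether the numbers pair the libraries was not settled. Absolute depth is unknown, and values near 0 FPKM are limited by it.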
